A study of Mus musculus with 54 samples.

Results

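Axon guidance ligands and receptors are the cell surface and secreted proteins that steer growing nerve fibres, and their RNA levels are described here in mouse embryonic stem (ES) cells and in cells derived from them. Genes were chosen by symbol alone: those that begin with Epha, Ephb, Efna, Efnb, Sema, Plxn, Slit, Robo, Ntn, Unc5 or Nrp and go on with a digit or a letter from a to d, and Dcc and Neo1. This gave 72 genes of 38363 entries in the table of retinoic acid (RA) treated cells and 72 of 39067 entries in the table of LIF withdrawal and derived cells. By family 70 of the 72 are guidance ligands or receptors. The other 2, Unc50 and Unc5cl, match the symbols chosen but are not guidance receptors, and neither passed a test reported below. They are kept in the counts: at day 4 they add 2 to the members lower in the knockout by mean and 1 to those lower without overlap, and in NSC they add 1 to each count of members higher. The RA libraries come from 46C cells, an ES line of strain 129/Ola with GFP inserted at Sox1, kept for a day in serum-free medium with LIF and a pair of kinase inhibitors and then given 2 µM RA without them. They were wild type (WT, libraries WT-1 and WT-2) or carried the deletion named Haunt 58 kb KO (libraries KO-i and KO-j), with 2 libraries of each genotype at day 2 and 2 at day 4. The other table has 7 columns, all WT: undifferentiated ES cells (day 0, the authors' mean of 3 libraries of lines CJ7 and JF4) and cells after LIF withdrawal at day 2 (mean of 2, J1 and CJ7), day 4 (1 library, CJ7) and day 6 (mean of 3, JF4, J1 and CJ7), and 1 library for each of 3 derived populations, mesendoderm (ME), progenitors of the neural lineage (NPC) and neural stem cells (NSC). ME were sorted for GFP from a line with GFP at T after LIF withdrawal, NPC were sorted for Sox1-GFP from 46C, and NSC were such sorted cells grown on with EGF and FGF-2. Haunt is a long noncoding RNA beside the HOXA genes, and the study deals with the part of this RNA and of its DNA in the control of those genes.

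Guidance works through ligands, secreted or held on the cell surface, and receptors on the cell that responds. Ephrins are membrane-bound ligands of the Eph receptor kinases, and signals pass both ways between the touching cells. Secreted class 3 semaphorins act through neuropilins and plexins, whereas most membrane semaphorins bind plexins directly. Slits repel through Robo receptors, and netrins attract through Dcc and neogenin (Neo1) and repel through Unc5 receptors. Outside nerve fibres the same proteins sort cells, shape vessels and guide migrating cells, and several are known from early embryos and ES cells.

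Values are FPKM, and differences between days or genotypes are on the log2(FPKM + 1) scale, which understates changes of low genes. RA libraries held about 9020000 to 16400000 reads, so 1 FPKM corresponds to about 9.02 to 16.4 reads per kilobase of transcript. Haunt itself, listed as Gm15055, read 128 and 142 FPKM in WT at day 2 and 31.8 and 40.6 at day 4. In the libraries labelled knockout it read 1.13 and 3.08 FPKM in KO-i at days 2 and 4 and was listed at 0 and 0.447 in KO-j. Marker lists of the cell types these cultures could hold were read in the same libraries. From day 2 to day 4 in WT, 8 of 10 primitive endoderm markers rose and none fell (limma), and their sum was 86.1 and 107 FPKM at day 2 and 432 and 411 at day 4. Undifferentiated ES cell markers fell in 6 of 8, with sums of 1343 and 1631 and then 175 and 185. Of 8 neural progenitor markers 6 were tested, of which 3 rose and 2 fell (sums of 131 and 109 and then 93.0 and 89.9), with Pax6 at 33.8 to 41.8 FPKM at day 4 and Fabp7 listed at 0 in both WT libraries then. Of 10 neuron markers 4 were tested and 3 fell (sums of 81.6 and 93.2 and then 14.9 and 18.7), and Snap25 was listed at 0 to 0.0327 FPKM in WT. Of the 4 tested mesendoderm markers, a list that shares Foxa2 with primitive endoderm, 2 rose and 1 fell. Of 3 endothelial ones 1 rose and 1 fell, and of 5 fibroblast ones 2 rose and 2 fell. The part of such shifts between cell types in the results below was not tested, and in bulk samples fewer cells of a type and less RNA per cell cannot be told apart.

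Most of the guidance genes that could be tested changed between days 2 and 4 of RA in WT, and most of those rose. Of 58 members that reached 1 FPKM in 2 or more of the 8 libraries, 25 rose and 7 fell (limma, adjusted p under 0.05), which is 55.2%, whereas 25.3% of all 15705 genes tested passed. In single directions 43.1% of the members rose against 14.4% of all genes, and 12.1% fell against 10.9%. The median difference was 0.46 for the 58 members and 0.04 for all genes. With each library centred on its median, which lowers WT differences by 0.10, the members split into 20 higher and 10 lower and all genes into 1766 higher and 2334 lower, in place of 2260 and 1713. The 25 that rose include at least 1 member of every family, from Slit3 and Robo2 to the semaphorins Sema6a, Sema3c and Sema6d and the ephrins Efna5 and Efnb2. Those that fell were Epha2, Sema3e, Sema7a, Efna3, Slit1, Sema5b and Unc5b. Of those that rose, Robo2, Sema3a, Sema3b, Sema3c, Sema6d, Unc5c and Ntn4 were under 1 FPKM in every day 2 library of both genotypes. They entered the test only through day 4, where they are high. Efna5 reached 1 FPKM in only 1 day 2 library (KO-j, 1.02), short of the 2 needed, so it too was tested because of day 4. Sema3e and Slit1 were under 1 FPKM in every day 4 library and entered only through day 2. The same filter applied to all genes.

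Slit3, a secreted repellent (NM_011412, mm9 chromosome 11, 34934958 to 35522009), changed most. It read 1.45 and 1.06 FPKM in WT-1 and WT-2 at day 2 and 18.3 and 24.8 at day 4, a rise of 3.31 (SE 0.26, limma adjusted p = 0.000472). Both day 4 libraries thus lie far above both day 2 libraries. A receptor of Slits, Robo2 (NM_175549, chromosome 16, 73892551 to 74411157), was near 0 at day 2, at 0.118 and 0.245 FPKM, and read 4.23 and 5.90 at day 4 (2.35, SE 0.28, adjusted p = 0.00168). Of the other tested Slits and Robos none rose. Slit1 fell from 1.72 and 1.74 to 0.825 and 0.583 FPKM (-0.68, adjusted p = 0.0291), and Slit2 read 2.66 and 1.71 and then 2.95 and 4.72, which did not overlap and did not pass (adjusted p = 0.13). Robo1, the most abundant Robo, lay between 16.2 and 20.0 FPKM in all 4 WT libraries (0.02, adjusted p = 0.927). Robo4, known from endothelium, read 1.33 and 1.58 and then 0.170 and 0.305 (-0.99, adjusted p = 0.0522), and Robo3, a receptor of crossing nerve fibres, read at most 0.452 FPKM in all 8 libraries and was not tested. Summed over the 3 Slits the level was 5.83 and 4.51 FPKM at day 2 and 22.1 and 30.1 at day 4, and at day 4 most of it was Slit3.

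**Figure D1:**
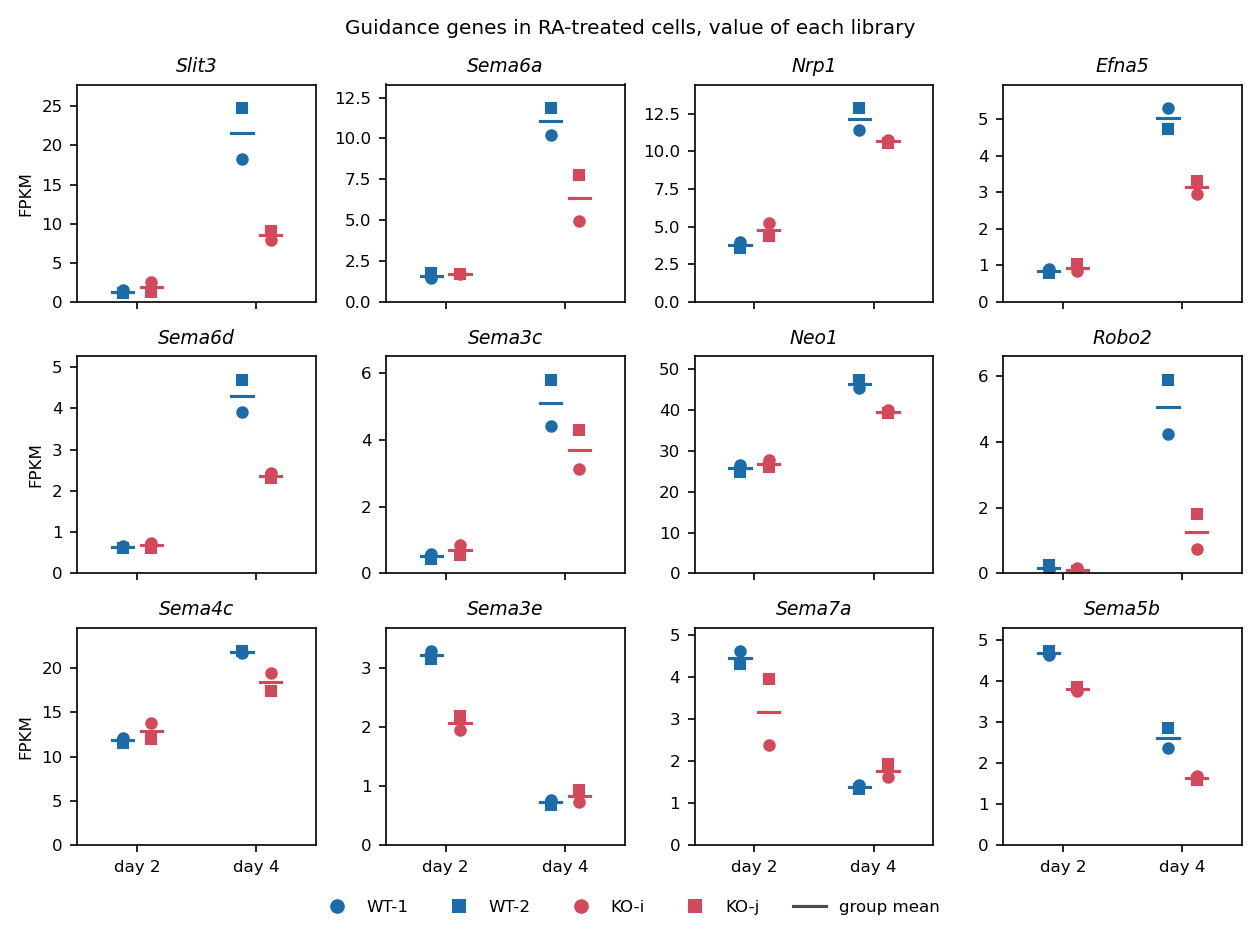
FPKM (vertical axes, from 0) at RA days 2 and 4 for the 9 members that rose and the 3 that fell with the smallest p in WT; points are single libraries (circles WT-1 and KO-i, squares WT-2 and KO-j) and lines are group means. Both WT libraries at day 4 lie above both at day 2 for Slit3, Sema6a, Nrp1, Efna5, Sema6d, Sema3c, Neo1, Robo2 and Sema4c and below them for Sema3e, Sema7a and Sema5b.

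The stretches before the start sites of these genes are shown because Slit3, Robo2 and Sema3c rose and Sema3e fell, and because members differ widely in CpG at their starts, from 0 to 46 in a window. RefSeq promoter windows (build GRCm38.p6, another build than the mm9 of the expression tables) were found for 62 of 72 members, 78 windows in all. The 250 bases before the start held a median of 64.4% G or C and 15.5 CpG, against 52.4% and 6 over all 32851 windows. Members that rose in WT had a median of 18 CpG over 29 windows, those that fell 19 over 7, those tested without a call 13 over 30, and those not tested 15.5 over 12. The medians of members that rose and that fell were thus close. Slit3 (chr11:35121206-35121455, + strand) and Sema3c (chr5:17574566-17574815, + strand) have dense windows, with 35 and 39 CpG. Robo2 has 3 start sites on the - strand, of which the windows with most and fewest CpG are given, chr16:74411826-74412075 with 14 and chr16:75092771-75093020 with 4. Sema3e (chr5:14025026-14025275, + strand), which fell, has 7. Each window is written 5′ to 3′ and ends at the base before the start, with every CG in capitals.
Slit3: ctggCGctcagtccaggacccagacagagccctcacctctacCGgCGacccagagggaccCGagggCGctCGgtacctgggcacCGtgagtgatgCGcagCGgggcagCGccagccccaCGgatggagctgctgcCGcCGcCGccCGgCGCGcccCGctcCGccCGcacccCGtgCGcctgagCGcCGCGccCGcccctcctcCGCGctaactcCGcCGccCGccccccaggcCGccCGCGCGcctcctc
Sema3c: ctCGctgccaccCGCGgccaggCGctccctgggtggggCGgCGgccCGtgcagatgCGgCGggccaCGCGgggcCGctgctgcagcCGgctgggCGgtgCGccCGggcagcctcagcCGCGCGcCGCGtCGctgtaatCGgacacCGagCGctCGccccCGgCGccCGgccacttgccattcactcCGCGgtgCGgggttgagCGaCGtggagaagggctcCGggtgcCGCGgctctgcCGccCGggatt
Robo2, window of 14 CpG: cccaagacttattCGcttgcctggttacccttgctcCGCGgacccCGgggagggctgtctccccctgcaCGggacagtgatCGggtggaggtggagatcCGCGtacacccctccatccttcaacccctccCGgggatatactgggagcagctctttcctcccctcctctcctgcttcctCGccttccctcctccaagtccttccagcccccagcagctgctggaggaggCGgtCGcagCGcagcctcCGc
Robo2, window of 4 CpG: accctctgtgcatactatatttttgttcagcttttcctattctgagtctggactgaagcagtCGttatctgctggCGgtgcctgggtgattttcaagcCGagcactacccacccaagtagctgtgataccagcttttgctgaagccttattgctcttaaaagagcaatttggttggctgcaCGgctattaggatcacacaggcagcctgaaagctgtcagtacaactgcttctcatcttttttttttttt
Sema3e: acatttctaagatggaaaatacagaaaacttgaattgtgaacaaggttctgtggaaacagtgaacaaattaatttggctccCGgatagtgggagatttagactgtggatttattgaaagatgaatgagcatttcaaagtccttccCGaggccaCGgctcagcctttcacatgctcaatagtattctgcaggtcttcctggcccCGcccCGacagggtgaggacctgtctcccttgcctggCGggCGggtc
RA receptors are known to bind direct repeats of a 6-letter motif. A search on both strands for pairs of AGGTCA or AGTTCA with 5, 2 or 1 letters between found none in the 78 windows, and found 45 windows with a match among all 32851 (0.137%). By spacing of 5, 2 and 1 letters these were 0.0335%, 0.0365% and 0.067% of all windows. The search covers these windows only and says nothing of sites elsewhere.

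Semaphorins split into members that rose and members that fell, within both the secreted and the membrane class. Among secreted class 3 semaphorins, Sema3c read 0.585 and 0.440 FPKM at day 2 and 4.39 and 5.80 at day 4 in WT (2.00, SE 0.21, limma adjusted p = 0.00125). Sema3a rose by 1.05 (adjusted p = 0.0166) to 1.11 and 1.36 FPKM and Sema3b by 1.04 (adjusted p = 0.0208) to 2.89 and 1.74, so both were low at both days. Sema3e, which binds Plxnd1 without a neuropilin, went the other way, from 3.28 and 3.15 to 0.772 and 0.684 FPKM (-1.29, SE 0.17, adjusted p = 0.00273). Sema3f, the most abundant of the class over the 8 libraries, read 6.95 and 5.37 and then 4.44 and 4.86 (-0.33, adjusted p = 0.177). Of the membrane semaphorins, Sema6a, a ligand of class A plexins, went from 1.44 and 1.75 to 10.2 and 11.9 FPKM (2.21, SE 0.21, adjusted p = 0.000864). Sema6d went from 0.655 and 0.629 to 3.92 and 4.70 (1.69, SE 0.17, adjusted p = 0.00115), Sema4c rose by 0.83 to 21.7 and 21.9, and Sema4g rose by 0.47 to 22.9 and 22.6. Sema7a, which is anchored by a lipid, fell by 1.20 (adjusted p = 0.00726), from 4.60 and 4.30 to 1.42 and 1.32 FPKM, and Sema5b fell by 0.66 (adjusted p = 0.0193). Sema4b, the highest membrane semaphorin by its mean over the 8 libraries, read 20.4 and 23.9 and then 20.1 and 19.8 (-0.14, adjusted p = 0.586).

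Receptors of semaphorins rose or did not pass, and none fell. Both neuropilins rose in WT: Nrp1 from 3.95 and 3.58 to 11.4 and 12.9 FPKM (1.46, SE 0.14, limma adjusted p = 0.000871) and Nrp2 from 4.66 and 8.45 to 14.1 and 26.1 (1.47, SE 0.31, adjusted p = 0.0141). The WT-2 library held the higher Nrp2 level at both days. Among plexins, Plxna2 rose from 17.2 and 18.0 to 37.1 and 37.0 FPKM (1.03, SE 0.18, adjusted p = 0.00671) and Plxnb2, a receptor of class 4 semaphorins, from 18.6 and 18.2 to 34.9 and 33.5 (0.86, adjusted p = 0.00856). Plxna1 stood between 23.2 and 27.4 FPKM in all 4 WT libraries and did not pass, nor did Plxna3, Plxnb1 and Plxnd1. Plxna4, Plxnb3 and Plxnc1, the receptor of Sema7a, were not tested, and Plxna4 was listed at 0.112 and 0.115 FPKM at day 2 and at 0.977 and 1.02 at day 4.

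Among ephrins, Efna5 changed most, from 0.884 and 0.789 to 5.31 and 4.74 FPKM (1.71, SE 0.17, limma adjusted p = 0.000945). Efnb2 read 4.63 and 2.94 and then 11.8 and 11.1 (1.40, SE 0.25, adjusted p = 0.00784). Efna4, the most abundant ephrin-A by the mean over the 8 libraries, rose by 0.86 (adjusted p = 0.0194), and Efna1 and Efnb3 passed narrowly (adjusted p = 0.0492 and 0.0479). Efna3 fell by 0.70 (adjusted p = 0.0215), although it lies on chromosome 3 between Efna1 (89075652 to 89084873, mm9) and Efna4 (89137315 to 89141950), at 89118873 to 89126801. Neighbours that moved in opposite directions thus share this stretch of the chromosome. Of the Eph receptors, Epha7 rose from 1.91 and 2.37 to 5.80 and 8.05 FPKM (1.33, SE 0.26, adjusted p = 0.0108) and Epha1 from 0.982 and 0.681 to 2.23 and 2.30 (0.84, adjusted p = 0.0202). Epha2, known for its high level in ES cells, read 29.3 and 51.7 at day 2 and 12.5 and 12.7 at day 4 (-1.56, SE 0.46, adjusted p = 0.044). Ephb4, a receptor of Efnb2 and the most abundant EphB over the 8 libraries, rose by 0.46 (adjusted p = 0.0378), and Ephb1 by 0.90 (adjusted p = 0.0458) from 1.01 and 0.505 FPKM. Of the 9 EphA receptors 5 were too low to test, Epha3, Epha5, Epha6, Epha8 and Epha10.

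In the netrin system the attractive receptor Neo1 was the highest of its family and rose from 26.6 and 24.9 to 45.3 and 47.4 FPKM (0.83, SE 0.09, limma adjusted p = 0.00159). Unc5c, a repellent receptor, went from 0.187 and 0.321 to 2.05 and 2.83 (1.45, SE 0.21, adjusted p = 0.0033), whereas Unc5b fell from 10.1 and 11.9 to 5.92 and 7.33 (-0.65, adjusted p = 0.0499). These 2 receptors of netrin thus moved in opposite directions. Dcc, the classic netrin receptor of nerve fibres, read 1.45 and 0.965 and then 0.449 and 0.240 FPKM (-0.71, adjusted p = 0.0876). Of the ligands, Ntn4 rose by 0.83 (adjusted p = 0.0285) to 1.30 and 1.33 FPKM, and Ntn1, the most abundant netrin over the 8 libraries, read 13.0 and 9.01 and then 15.8 and 23.2 (0.77, adjusted p = 0.0564).

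Of the 32 calls in WT, 12 held when each of the 8 libraries was left out in turn: Slit3, Sema6a, Nrp1, Efna5, Sema6d, Sema3c, Neo1, Robo2, Sema3e, Sema4c, Unc5c and Plxna2. The highest adjusted p among them was 0.0463, for Plxna2. The other 20 kept their direction and lost the call at least once, with Sema7a nearest the threshold (at most 0.0508) and Efnb3 farthest from it (at most 0.238). Without WT-1 or WT-2 at day 2 the count was 16 and 15, and without WT-1 or WT-2 at day 4 it was 16 and 14. By length of the locus, of 23 tested members whose listed span is at least 100 kb, 14 rose (60.9%), against 25.5% of the 1555 genes of that span. Of 35 shorter members 11 rose (31.4%), against 13.2% of 14150 genes.

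**Figure D2:**
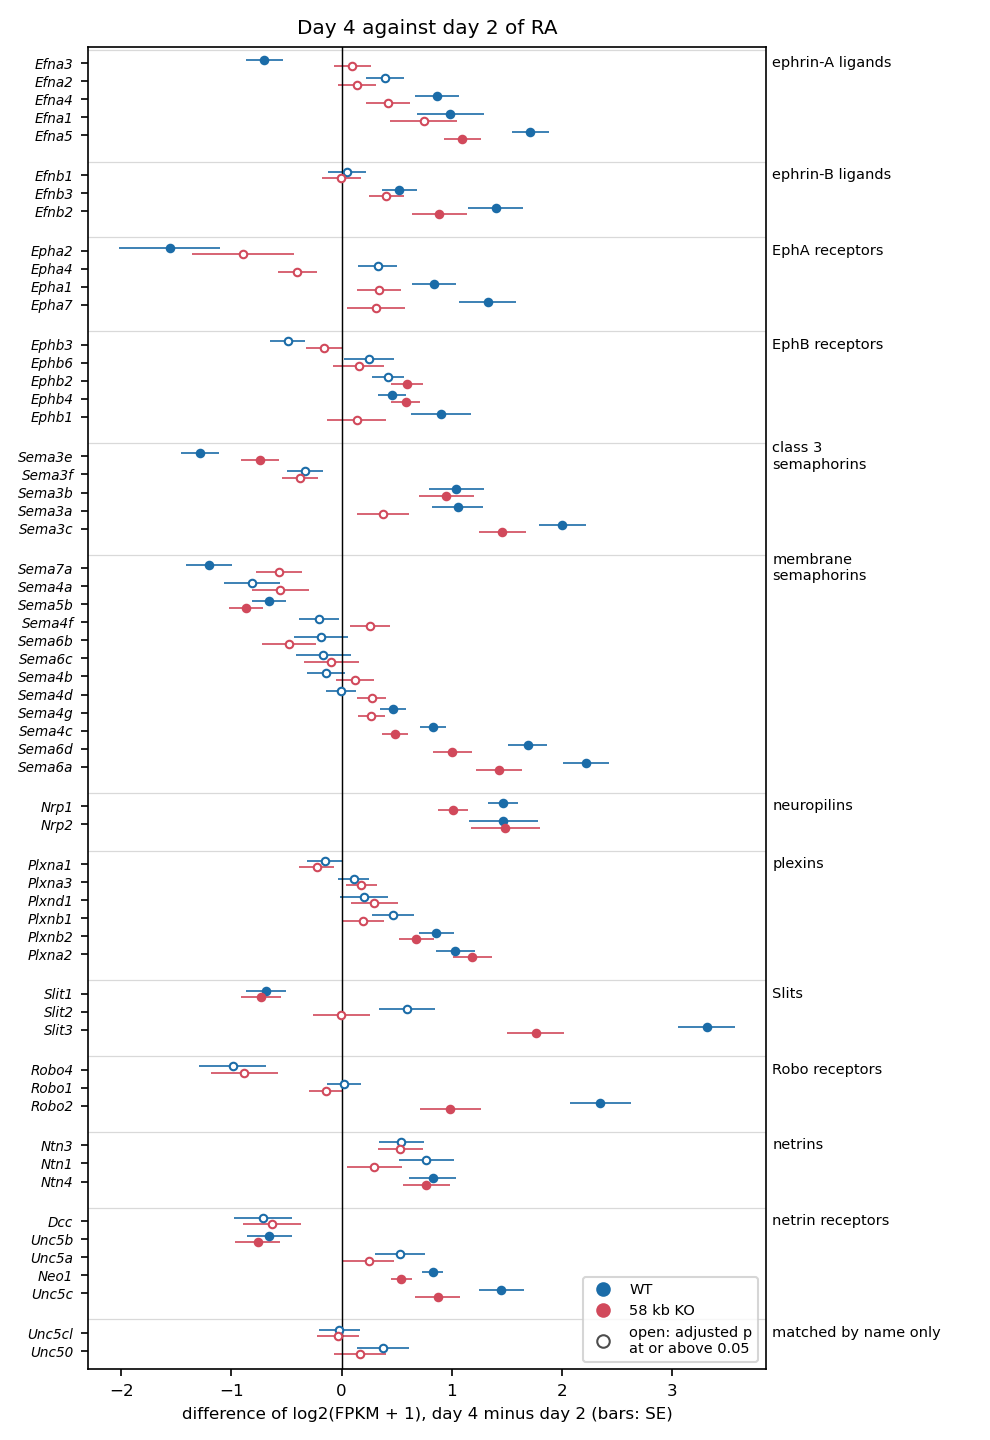
Difference of log2(FPKM + 1) between RA days 4 and 2 (horizontal axis, bars 1 SE) for the 58 members tested, in WT (blue) and 58 kb KO (red), ordered by family; filled points have adjusted p under 0.05. Slit3 lies at 3.31 in WT and 1.76 in 58 kb KO, and 7 members in WT and 4 in 58 kb KO are filled to the left of 0.

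Guidance genes also rose between the days in the knockout cells. In 58 kb KO 18 members rose and 4 fell (37.9% of 58), against 17.8% of all genes (10% higher and 7.81% lower), with a median of 0.26 for the members and 0.04 for all genes. With centred libraries the split was 14 and 4 for members and 1189 and 1571 for all genes, in place of 1576 and 1226. Nrp1 read 5.23 FPKM at day 2 and 10.8 at day 4 in KO-i, and 4.37 and 10.6 in KO-j (1.01, SE 0.14, limma adjusted p = 0.00626). Slit3 went from 2.56 and 1.21 to 7.95 and 9.10 (1.76, SE 0.26, adjusted p = 0.00708), Sema6a from 1.69 and 1.68 to 4.95 and 7.78 (1.43, adjusted p = 0.00713) and Sema3c from 0.839 and 0.565 to 3.12 and 4.28 (1.46, adjusted p = 0.00729). Plxna2 rose by 1.19, Efna5 by 1.09, Nrp2 by 1.49 and Sema6d by 1.01, and Ephb2, with 11.6 and 14.1 and then 18.4 and 21.4 FPKM, by 0.59 (adjusted p = 0.0325). Robo2 read 0.169 and 0.0621 and then 0.743 and 1.80 FPKM (0.99, adjusted p = 0.0469). Sema5b fell by 0.87 (adjusted p = 0.0121), Unc5b by 0.76, Sema3e by 0.74 and Slit1 by 0.73. The calls for Nrp1, Slit3, Sema6a, Sema3c, Plxna2 and Efna5 held without each library, and the other 16 did not. The count was 15 and 8 without KO-i or KO-j at day 2, 12 and 13 without KO-i or KO-j at day 4, and 11 to 13 without each WT library. It was 5 without both KO-i libraries, a setting chosen after KO-i was seen to stand apart, and 1 (396 over all genes) when only the 4 knockout libraries entered the fit. KO-i had the lowest sum of ES cell markers at day 2, 756 FPKM against 1375 in KO-j, and the lowest Epha2, 12.2 against 37.3 FPKM. Primitive endoderm markers rose in 5 of 10 in the knockout, with a sum between 71.6 and 83.2 FPKM at day 2 and between 236 and 266 at day 4.

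At day 2 no member differed between 58 kb KO and WT by limma's adjusted p, against 0.0255% of all genes, and 2 of 58 had an unadjusted p under 0.05, against 5.11% of all genes. These were Sema3e, at 1.94 and 2.19 FPKM against 3.28 and 3.15 (-0.46, limma adjusted p = 0.88), and Nrp2, at 3.37 and 3.29 against 4.66 and 8.45 (-0.76, adjusted p = 0.88). Ephb3 read 13.9 and 19.4 FPKM against 20.4 and 21.1 (-0.32, adjusted p = 0.88). The genotypes did not overlap for 18 members (31%), 9 in each direction, against 37% of all genes, 23.1% higher and 13.9% lower.

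At day 4 again no member passed (0% of all genes did), and 41 of 58 had the lower mean in the knockout (70.7%, against 46.6% of all genes). An unadjusted p under 0.05 was found for 19 of 58 members (32.8%), against 14.4% of all genes. Both knockout libraries were below both WT libraries for 26 members (44.8%), against 21.7% of all genes, and above them for 10 (17.2%), against 24.9%. Among the 26 is Sema3a, which reached 1 FPKM only in the WT day 4 libraries and so was tested through them alone. Robo2 and Unc5a, also among the 26, reached 1 FPKM in those libraries and otherwise only in KO-j at day 4. Without the WT day 4 libraries, where they are high, they would not have been tested either. Sema3a and Robo2 are also among the 19. The median difference was -0.15 for members and 0.02 for all genes. Robo2 had the smallest p, with KO-i at 0.743 and KO-j at 1.80 FPKM against 4.23 and 5.90 in WT (-1.44, SE 0.28, limma adjusted p = 0.155). Slit3 read 7.95 and 9.10 against 18.3 and 24.8 (-1.23, SE 0.26, adjusted p = 0.165) and Epha7 1.88 and 3.19 against 5.80 and 8.05 (-1.17, SE 0.26, adjusted p = 0.173). Sema6d differed by -0.65 (adjusted p = 0.206), Sema6a by -0.73 (adjusted p = 0.217), Efna5 by -0.54 (adjusted p = 0.242), Sema5b by -0.45 (adjusted p = 0.272) and Unc5c by -0.56 (adjusted p = 0.299), each without overlap. On the higher side were Plxna2 at 58.8 and 48.9 against 37.1 and 37.0 FPKM (0.52, adjusted p = 0.274), Efna3 (0.45, adjusted p = 0.305), Sema4d, a ligand of Plxnb1 (0.35, adjusted p = 0.306), Sema4f (0.45, adjusted p = 0.324) and Plxna3 (0.33, adjusted p = 0.339). The WT day 4 libraries also enter the comparison of days in WT, so a high value there moves both comparisons. Primitive endoderm markers summed to 411 to 432 FPKM in WT and 236 to 266 in the knockout at day 4. Mesendoderm markers, which share Foxa2 with the primitive endoderm list, summed to 30.8 to 46.4 and 13.8 to 19.2, with T under 1 FPKM in all of them. The part of these differences in the lower guidance genes was not tested.

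Whether the genotypes differed more at day 4 than at day 2 was tested directly. No member and none of the 15705 genes (0%) passed, and 8 members (13.8%) had an unadjusted p under 0.05, against 5.56% of all genes. They were Slit3 (-1.55, SE 0.36, limma adjusted p = 0.71), Robo2 (-1.36, SE 0.39, adjusted p = 0.728), Epha7 (-1.01, adjusted p = 0.825), Sema6a (-0.78, adjusted p = 0.845), Epha4 (-0.73, adjusted p = 0.824), Sema6d (-0.68, adjusted p = 0.824), Efna5 (-0.62, adjusted p = 0.854) and, upwards, Efna3 (0.80, adjusted p = 0.753). The smaller rise of Slit3 and Robo2 in the knockout is therefore a difference of values that did not pass. Robo2, counted among the 8, would not have been tested without the WT day 4 libraries, where it is high.

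Position on the chromosome moved with some of these differences. For each member the median difference from the WT mean was taken over genes with a mean of at least 5 FPKM within 10 Mb. Around Plxna2 on chromosome 1 the 35 such genes were higher in the knockout, by 0.35 and 0.36 in KO-i at days 2 and 4 and by 0.56 and 0.54 in KO-j. Plxna2 itself was higher by 0.63 and 0.65 in KO-i and by 0.10 and 0.39 in KO-j, in the same direction as its surroundings. Around Nrp2, also on chromosome 1, KO-i was higher by 0.26 and 0.27 at days 2 and 4 and KO-j by 0.00 and -0.05, whereas Nrp2 was lower by 0.71 to 0.77 in every knockout library. Genes around Slit3 (chromosome 11, 39 genes), Robo2 (chromosome 16, 9 genes) and Epha7 (chromosome 4, 21 genes) differed by -0.10 to 0.06 at day 4.

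**Figure D3:**
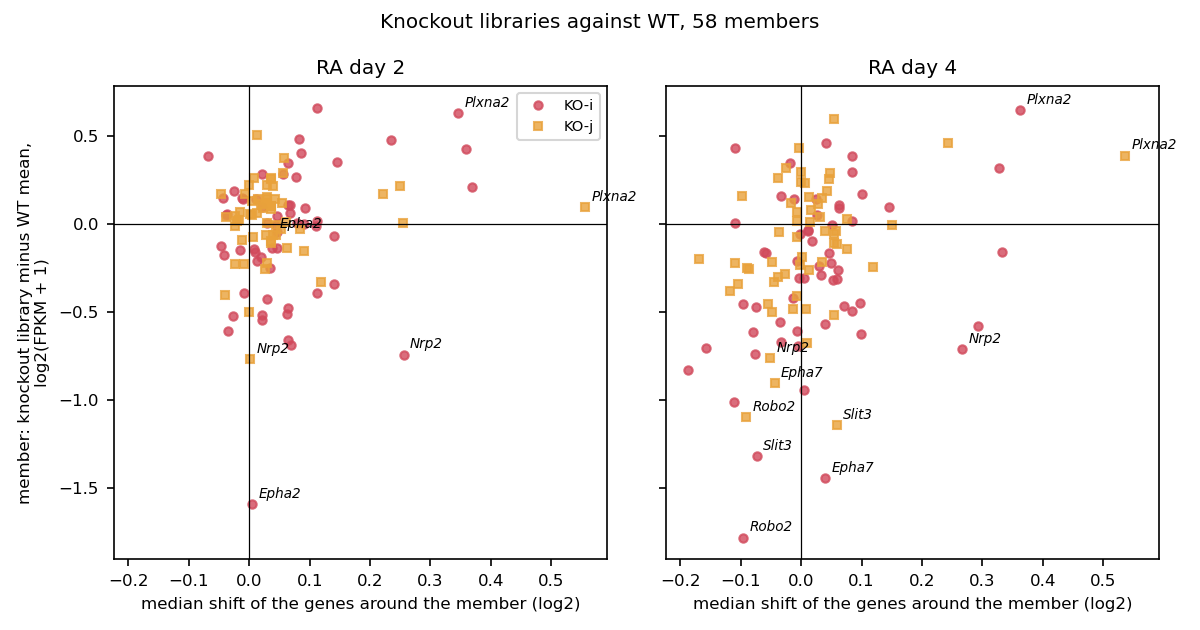
Each of the 58 members in KO-i (circles) and KO-j (squares) at RA days 2 and 4: the vertical axis is the library's log2(FPKM + 1) minus the WT mean, and the horizontal axis is the median of the same difference over genes within 10 Mb. At day 4 Robo2, Slit3 and Epha7 lie low with surroundings near 0, and Plxna2 lies to the right, among genes higher by 0.36 (KO-i) and 0.54 (KO-j).

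Partners of these families outside the symbols chosen were read as a list of 28 genes. Of 22 tested, 11 rose (50%) and 1 fell (4.55%) in WT between days 2 and 4, against 14.4% and 10.9% of all genes, with a median of 0.51. In the knockout 8 rose (36.4%) and none fell, against 10% and 7.81%. Flrt3, a membrane protein that binds Unc5 receptors, went from 5.23 and 6.33 to 42.4 and 41.4 FPKM in WT (2.67, SE 0.14, limma adjusted p = 0.000302). The chemokine Cxcl12 went from 0.490 and 0.584 to 17.0 and 26.7 (3.86, adjusted p = 0.000747) and Gas1, a hedgehog co-receptor, from 21.6 and 23.9 to 135 and 169 (2.68, adjusted p = 0.000312). Celsr3, a cadherin of nerve fibre tracts, fell by 0.88 (adjusted p = 0.024), and Vegfa, a ligand of Nrp1, and Cxcr4, the receptor of Cxcl12, were at -0.72 and -0.69 (adjusted p = 0.0505 and 0.053). At day 4 Flrt3 was at 20.2 and 22.2 FPKM in the knockout (-0.95, adjusted p = 0.128) and Cxcl12 at 9.92 and 12.2 (-0.89, adjusted p = 0.316). Of 43 signalling genes inside the cell 41 were tested, of which 11 rose (26.8%) and 3 fell (7.32%) in WT, with a median of 0.24. In the knockout 6 rose (14.6%) and 1 fell (2.44%). The shares of all genes are those given for the partners. Mical2, an oxidase of actin, rose by 3.43 (adjusted p = 0.000302), the protease Adam10, which sheds ephrins, by 1.17 (adjusted p = 0.00211) and the exchange factor Kalrn by 0.95 (adjusted p = 0.00895). Crmp1, which relays semaphorin signals, fell by 2.31 (adjusted p = 0.00213), Rnd1, a small GTPase that binds plexins, by 1.40 and Ngef, an exchange factor bound by Epha4, by 0.77. By limma's adjusted p no gene of either list differed between genotypes. An unadjusted p under 0.05 was found at day 2 for 2 of 22 partners (9.09%) and 3 of 41 signalling genes (7.32%), against 5.11% of all genes. At day 4 it was found for 7 (31.8%) and 6 (14.6%), against 14.4%.

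After withdrawal of LIF more guidance genes stood above their day 0 level at each later day. These columns are means or single libraries, so differences of at least 1 log2 unit were counted without a test, over 57 members and 14189 genes with at least 1 FPKM in a column. Against day 0, 8 members were higher and 2 lower at day 2, where 4.58% of all genes were higher and 5.07% lower. At day 4 they were 13 and 1 (all genes 6.53% and 8.62%), and at day 6 they were 23 and 3 (11.4% and 6.97%). Unc5c, among the 23 higher at day 6, reached 1 FPKM only in that column and entered the counts through it. The columns mix ES lines in different proportions, so line and day cannot be told apart. At day 0 Epha2 (22.5 FPKM), Nrp2 (16.2) and Plxna1 (14.3) were the highest members. At day 2 Sema6a led, at 38.3 FPKM against 3.87 (3.01), followed by Epha1 (22.9 against 3.68), Efnb2 (32.3 against 7.31), Sema3c (5.94 against 0.809) and Sema3e (25.6 against 7.49), while Ntn1 (1.74 against 6.48) and Sema4b (4.62 against 11.4) were lower. At day 4 Epha1 (25.3), Plxna2 (5.39 against 0.312) and Sema4c (6.68 against 1.07) were higher, and Ephb3 read 2.46 against 4.21. At day 6 Nrp1 reached 20.1 FPKM against 0.468 (3.84), Unc5b 28.2 against 3.11, Efnb1 14.9 against 1.69, Unc5c 5.07 against 0.0651 and Slit3 10.4 against 1.41. Nrp1, Slit3 and Unc5c were thus higher at day 6 than at day 0 here and rose from day 2 to day 4 of RA in WT. Unc5b and Sema3e were also higher at day 6 than at day 0 here and fell from day 2 to day 4 of RA. These intervals differ, and the RA libraries include no day 0. Within LIF withdrawal Sema3e read 25.6, 22.2 and 17.8 FPKM at days 2, 4 and 6, and Unc5b 10.6, 11.1 and 28.2. The tables were normalized separately, so these are directions only.

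In ME the neuropilins, Slit3 and Unc5b were again among the higher members. Of 57 members 21 were higher and 3 lower than at day 0, against 9.2% and 10.7% of all genes. Nrp1 read 7.69 FPKM, Efna3 14.4 against 1.72, Slit3 11.8, Unc5b 19.3 and Epha1 21.8, with Nrp2 (34.0), Efnb2 (30.4) and Epha2 (23.1) the highest. Dcc was listed at 0. The 3 lower members were Sema4b (2.71 against 11.4 FPKM), Ntn1 (1.34 against 6.48) and Sema5b (0.0285 against 1.49). The mesendoderm markers T, Eomes and Mixl1 read 192, 90.8 and 115 FPKM, with Pou5f1 still at 486.

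By summed level EphA receptors (90.7 FPKM), membrane semaphorins (89.9) and ephrins of class B (86.7) led in NPC, against 31.2, 26.1 and 9.77 at day 0. There 29 members were higher and 6 lower than at day 0, against 14.7% and 11.7% of all genes, with a median of 1.06 for the members and 0.05 for all genes. Dcc, Robo3 and Slit1, among the 29, reached 1 FPKM only in NPC and entered the counts through it. Efnb2 (50.6 FPKM), Sema5b (48.7 against 1.49) and Epha7 (47.7 against 0.962) led, and Epha4 (32.3), Efnb1 (21.8), Efnb3 (14.2) and Ephb2 (14.9) were also high. Robo2 read 8.82 FPKM against 0.122 and Robo3 8.04 against 0.0874. Dcc read 7.19 FPKM here and at most 0.639 in every other column of the table. Slit1 read 6.73 and Ntn1 16.7. Lower than at day 0 were Sema3e (0.943 against 7.49), Nrp2 (3.26 against 16.2), Epha2 (6.15 against 22.5), Sema4b and Epha1. The cells also carried neural and neuronal markers, with Sox1, the gene of the sort, at 21.8 and Tubb3 at 109 FPKM. The 10 neuron markers summed to 295 FPKM in NPC and 95.0 in NSC, against 174 at day 0. Their sum was thus already high in undifferentiated ES cells, and their part in the levels of guidance genes was not tested.

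NSC and NPC differed in which families were high. Against day 0, 23 members were higher and 4 lower (all genes 20.5% and 16.5%), and against NPC 13 were higher and 17 lower (12% and 11.2%). Epha5, Sema5a and Sema3d, counted as higher than at day 0, reached 1 FPKM only in NSC and entered the counts through it. Epha5 and Sema5a are also among the 13 higher than in NPC. Among the 17 lower, Dcc, Robo3 and Slit1 reached 1 FPKM only in NPC and entered through that column. Semaphorins and plexins led: Sema6a read 82.4 FPKM, Plxnb2 77.7, Sema6d 62.3 against 4.85 in NPC and 0.0855 at day 0, Sema3a 19.9 against 1.00 in NPC, and Plxnd1 14.3 against 1.96. Membrane semaphorins summed to 201 FPKM in NSC and 89.9 in NPC. EphB receptors summed to 43.9 and 36.5, and Robos to 27.6 and 28.0. Eph receptors of class A ran the other way, with a sum of 8.31 in NSC and 90.7 in NPC, where Epha7 read 1.46 against 47.7 and Epha4 2.26 against 32.3. Efnb2 read 8.69 against 50.6, Robo3 0.0712 against 8.04 and Slit1 0.0465 against 6.73, while Robo1 and Robo2 read 16.6 and 11.0 FPKM in NSC and 11.1 and 8.82 in NPC. Ntn4 read 11.4 FPKM and Nrp1 8.15. The 4 members lower than at day 0 were Epha2 (0.676 against 22.5 FPKM), Sema3e (0.0877 against 7.49), Epha1 (0.00957 against 3.68) and Sema4d (0.863 against 3.64). Neural progenitor markers in NSC were Nes at 522 and Fabp7 at 1227 FPKM, with Sox1 at 0.910. Of the 10 neuron markers, which summed to 95.0 FPKM in NSC, Map2 alone read 89.4. The 6 endothelial markers summed to 12.6 FPKM in NSC, of which Emcn was 9.28, to 1.47 in NPC and to between 7.10 and 18.2 in the other columns. Pecam1, Cdh5 and Tie1 were at 0.00965, 0.116 and 0.00798 in NSC. The 6 fibroblast markers summed to 36.9 FPKM in NSC, 16.2 in NPC and between 15.2 and 79.3 in the others.

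**Figure D4:**
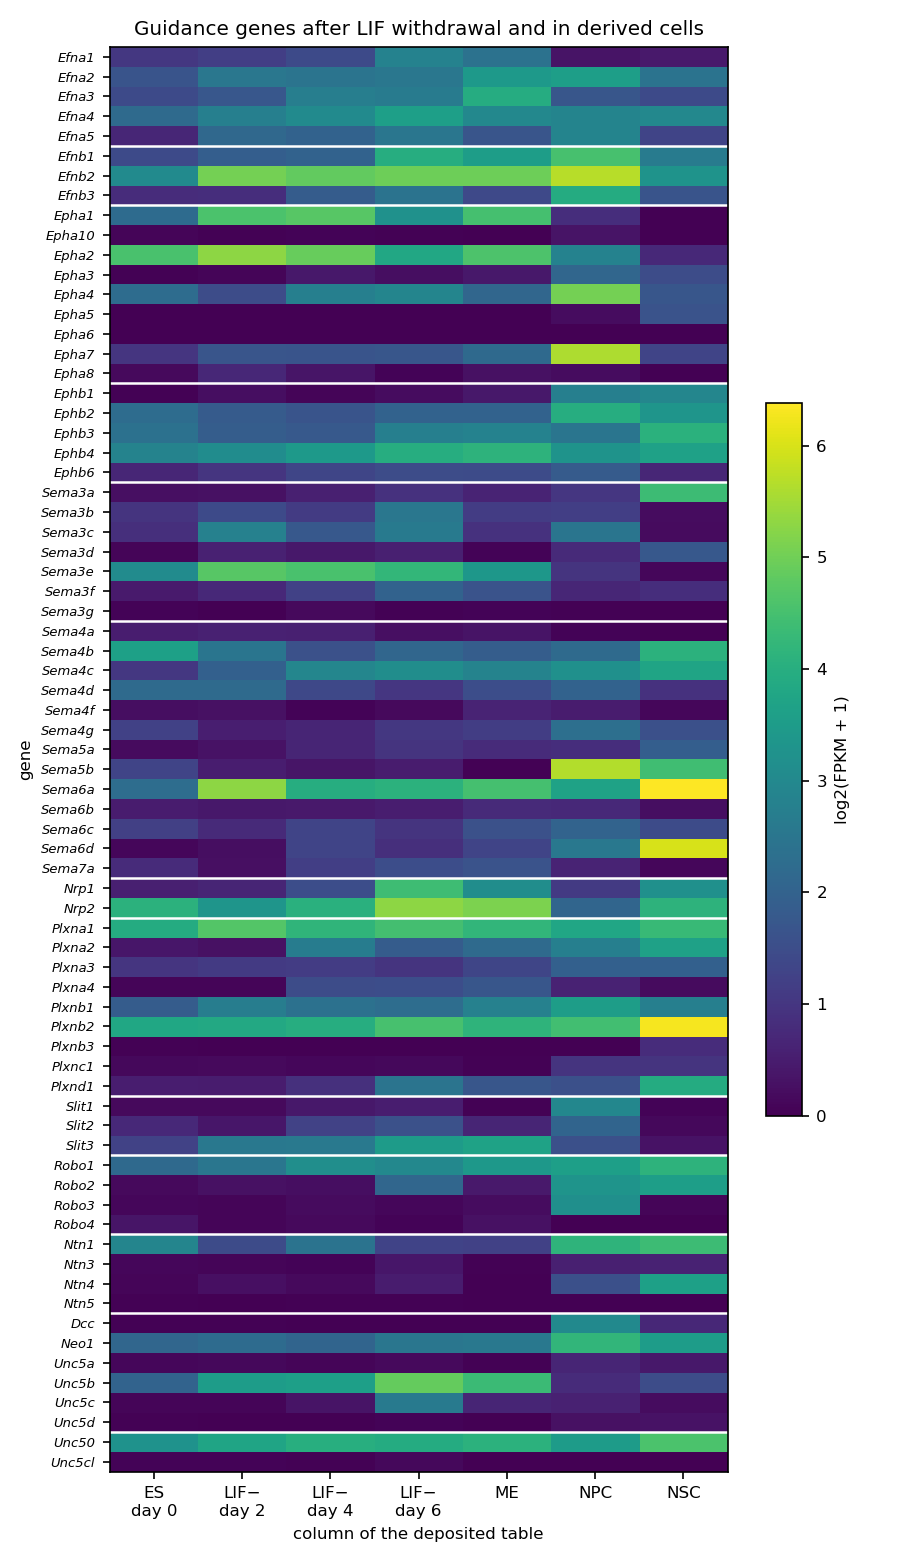
log2(FPKM + 1) (colour) of the 72 members, in rows grouped by family between white lines, in the 7 columns of the LIF and lineage table. Epha7, Sema5b and Efnb2 are brightest in NPC (47.7, 48.7 and 50.6 FPKM), and Sema6a, Plxnb2 and Sema6d in NSC (82.4, 77.7 and 62.3 FPKM).

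Of the 14 members too low to test in the RA table, several were expressed in the derived cells. These were Robo3 (8.04 FPKM in NPC), Epha3 (3.29 in NPC), Sema5a (2.75 in NSC), Sema3d (2.35 in NSC), Plxna4 (2.27 in ME) and Epha5 (2.08 in NSC), named after their values were seen. Epha6, Epha8, Epha10, Ntn5, Plxnb3, Plxnc1, Sema3g and Unc5d were under 1 FPKM in each column of the other table.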

How the data were processed

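The deposited tables hold FPKM per gene, as judged from the range and steps of the values, and cover 20 of the 54 samples; the other 34, a further RA set, chromatin immunoprecipitation and capture of RNA-bound chromatin, among them 1 whose labels disagree, were not analysed here. Per the submitters' processing notes, Bowtie 1.0.0, TopHat2 2.0.11, CASAVA and MACS 1.4.2 were used with build mm9, with no role given for each; the step from reads to FPKM is not stated. Per the labels' protocols strand was kept in the libraries of LIF withdrawal and derived cells but not in those of RA, so values of overlapping and antisense genes are uncertain. For 16 members the RA value includes a sum of several deposited estimates. In the other set 11 entries with a repeated symbol and 1 with a blank value were left out. That its day 0, 2 and 6 columns are means follows from the column names and from decimals: of values from 1 to 10 FPKM at day 0, 28.1% have at most 6 decimals as listed and 85.6% after multiplying by 3. Read depth was estimated from steps between low values and is approximate. The single libraries of that table came to 27700000 to 40600000 reads, and the means give no depth.

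From the RA values log2(FPKM + 1) was fitted with limma 3.58.1 in R 4.3.3, with an intensity trend, over the 15705 genes that reached 1 FPKM in 2 or more of 8 libraries and the 4 groups together (4 residual and 3.5 prior degrees of freedom). Adjusted p-values are Benjamini-Hochberg over all genes tested, with a threshold of 0.05. On simulated data for WT day 4 against day 2 with 15705 genes the fit recovered 69 of 100 genes changed by 1 log2 unit and 90 of 100 changed by 2, with 7 false among 166 calls. The changed genes were drawn from those with a mean log2(FPKM + 1) of at least 2, so recovery of lower genes was not simulated. In the real comparison 3973 genes were called, many more than were changed in the simulation. The labels do not state separate cultures for libraries of 1 group, so p-values measure the spread between these libraries, which may be technical. Named in the text are, by rule, the 5 members of smallest p in each direction per RA contrast, up to 15 past the threshold, the 5 with the largest differences per column comparison, the highest member of each family and the 3 highest of each column, and the 3 genes of smallest p in each direction of each pathway list in WT. The other members of the 32 calls, and of those not tested, are named to account for all. Members chosen in several comparisons are not named under each. The members, lists and rules were chosen with earlier results of these data known. Alternatives tried were another pseudocount, other filters, centred libraries, fewer libraries, no trend and the library name as a block.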

Additional observations from a re-analysis of the deposited data

Results flagged for a closer look

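Members whose knockout libraries all lay on one side of WT at day 2 and all on the other at day 4 were singled out, and their differences between days were tested by the limma interaction given here as adjusted p. Efna3 was at -0.35 at day 2 and 0.45 at day 4 (adjusted p = 0.753), and Sema7a at -0.41 and 0.22 (adjusted p = 0.901). In the other direction, Epha4 was at 0.33 and -0.40 (adjusted p = 0.824), Epha1 at 0.33 and -0.17 (adjusted p = 0.904), Nrp1 at 0.28 and -0.17 (adjusted p = 0.887) and Sema3a at 0.0701 and -0.61 (adjusted p = 0.901). None of these 6 differences passed, and 6 of 58 members (10.3%) compares with 4.6% of all 15705 genes. Of the 6, Sema3a was near 0 at day 2, at 0.150 and 0.108 FPKM in the knockout and 0.0696 and 0.0806 in WT. It was tested only through the WT day 4 libraries, where it is high. Between days, Epha4 was at 0.33 in WT and -0.40 in 58 kb KO, and Sema4f at -0.21 and 0.26, each without overlap within a genotype (adjusted p = 0.824 and 0.901 for the difference of the genotypes). These are 2 of 58 members (3.45%), against 1.85% of all genes.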

How the results depend on the processing

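No member called between days in the RA data changed sign under any alternative in which it was tested, and 896 of 998 values of single genes kept their side of the threshold. Calls of members between days were 16 in WT and 12 in 58 kb KO with a mean of at least 5 FPKM, where fewer genes are tested. Without a filter the knockout gave 13 members and 1596 genes, with only the 4 libraries compared 1 and 396, and without both KO-i libraries 5 and 736; the cause was not tested. Leaving out each library in turn gave 14 to 33 members and 1494 to 4273 genes in WT and 8 to 15 members and 980 to 2159 genes in the knockout. Of all genes 4 differed between genotypes at day 2, and 7 did without a filter, 0 with only the 4 libraries, 1 without both KO-i libraries and 0 to 5 leaving out each library. At day 4, in place of 0, it was 1 with a pseudocount of 0.1, 1 without a filter, 1 without both KO-i libraries and 0 to 7 leaving out each library. For the difference between days it was 5 without a filter, 1 without the intensity trend and 0 to 1 leaving out each library. With a pseudocount of 0.1 FPKM in the LIF and lineage table, members past 1 log2 unit were 14 higher and 6 lower at day 2 (all genes 1435 and 1256), 25 and 4 at day 4 (1739 and 1957) and 37 higher at day 6 (all genes 2638 higher and 1541 lower). They were 10 lower in NSC, and all genes were 2124 higher and 2495 lower in ME and 2639 lower in NSC against NPC. Library names are shared between days: deviations of libraries of a name correlated at 0.0849 in WT and 0.26 in 58 kb KO. The labels do not say what a name marks, and the names were not used in the tests reported. With the name as a replicate block 35 members passed in WT and 21 in the knockout, 31 and 21 of them shared with the calls reported. Depth limits members under about 1 FPKM, of which 14 could not be tested.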
